A study of Mus musculus with 28 samples.

Results

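The genes of the Myc, Max and Mxd network were followed in primary mouse embryonic fibroblasts (MEFs) on 28 Affymetrix arrays. The network was taken as 8 genes, Myc, Mycn, Max, Mxd1, Mxd3, Mxd4, Mxi1 and Mnt, and every probe set that the probe-to-gene table pairs with one of these symbols alone was kept. This gave 18 probe sets of 7 genes, out of 28898 probe sets with a single symbol that stand for 17097 genes. Max had no such probe set and was not analysed here. The genes had from 1 probe set (Myc) to 4 (Mxd4) each, and a gene is described at its probe set with the highest mean over the 28 arrays, with the others given where they were called or disagreed.

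Max is the common partner of the network. Myc and Mycn bind DNA as heterodimers with Max at E-boxes, the short palindrome CACGTG, and raise transcription of genes for ribosome synthesis, nucleotide synthesis and the cell cycle. Mxd1, Mxd3, Mxd4, Mxi1 (also called Mxd2) and Mnt compete for Max and for the same sites and recruit the Sin3 repressor with histone deacetylases. In fibroblasts Myc is known to follow growth factors, and the Mxd genes are known mostly from cells that leave the cycle and differentiate.

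MEFs of 13.5-day embryos were taken from wild-type (WT) mice, from mice lacking p53 (p53-/-), the stress-activated transcription factor, and from mice lacking p66 (p66-/-), the longest protein of the Shc1 gene. For every genotype there were 4 untreated arrays and 4 of cells given 400 μM H2O2, and 2 further arrays each for WT and p66-/- cells given doxorubicin (Doxo, 0.25 μg/ml), a topoisomerase II poison that breaks DNA. The labels name a treatment of 4 h for the H2O2 and Doxo groups. They name passage 2 and strain C57Bl/6 for all groups, whereas the study's text names strain sv129. The replicates are labelled biological and are described by the study as independent preparations of MEFs. The values are log2 signals normalized by the authors with RMA, and limma was run over 45037 probe sets with all 8 groups in 1 model. A difference is called where the p adjusted over all of them is under 0.05.

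The spike-in probe sets for lys averaged 5.27 on the arrays of replicates 1 and 2, 3.59 on those of replicates 3 and 4 and 4.19 on the 4 Doxo arrays, with ranges that met only at 4.04, so that the arrays form 3 sets. The Doxo arrays are a set of their own, and Doxo and array set cannot be told apart. In the p53-/- arrays Gadd45a and Atf3, both stress-induced genes, were high where the label reads untreated (9.62 and 8.88) and low where it reads H2O2 (6.57 and 5.98), opposite to WT cells, in which Gadd45a went from 6.69 untreated to 9.90 after H2O2. Trp53 and the p66 form of Shc1 were not analysed here, and Cdkn1a, a target of p53, read 7.65 and 6.64 in the p53-/- groups against 10.5 in untreated WT cells. Results of the 8 p53-/- arrays are therefore given by their labels and with these 2 labels exchanged. All 12 fibroblast markers lay above the lowest 40% of probe sets, and so did 7 of 8 macrophage and leukocyte markers, with list means of 4.57 to 7. So did 5 of 6 muscle, 4 of 6 epithelial, 3 of 4 hepatic and erythroid, 3 of 5 neural and 2 of 6 endothelial markers. The fibroblast list mean was 8.44 to 8.77 on the WT Doxo arrays and 8.87 to 10 on the untreated WT arrays. After Doxo 3 of 12 markers were called lower in WT cells, where 16.1% of all genes were called lower. The list median was -0.44, against 0.19 over all genes. The leukocyte list mean was 6.47 to 6.97 on the WT Doxo arrays and 4.99 to 6.71 on the untreated WT arrays. The epithelial list mean was 5.73 to 5.87 against 4.75 to 5.38. Muscle, endothelial, and hepatic and erythroid list means were also higher on the WT Doxo arrays, without overlap, and neural ones overlapped. The part of these markers in the Doxo results below was not tested.

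E-boxes near the starts of the member genes are shown because they are the letters that Myc, Max and Mxd proteins are known to bind. The matches describe the letters, and binding was not measured. RefSeq gene starts of GRCm38.p6 were searched over 250 bases before and 50 after the start, on both strands, for the E-box CACGTG. The table held 9 windows for the 7 genes other than Myc, and 3 of the 9 held an E-box, against 7.15% of 32851 windows of all genes. In Mxd4 the E-box began 219 bases before the start, in Mnt 123 bases and in Max 3 bases before it, counted from the start that the table uses. For Mnt and Max the annotated gene begins further upstream. That beginning falls within the printed stretch of Mnt, and the printed stretch of Max lies wholly inside the annotated gene. Each is printed 5′ to 3′ on the strand of its gene, with the E-box in capitals.
Mxd4, minus strand of chr5:34187912-34187941: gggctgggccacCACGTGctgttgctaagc
Mnt, plus strand of chr11:74830789-74830818: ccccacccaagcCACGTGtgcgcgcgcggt
Max, minus strand of chr12:76962234-76962263: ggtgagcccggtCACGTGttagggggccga
The windows of Mycn, Mxd1, Mxd3 and Mxi1 did not hold these 6 letters.

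CCAAT boxes were searched in the same windows. They were found in 2 of 9 member windows, against 37.4% of all windows, 4 times in that of Mxd1 and 2 times in that of Mxd4, whose stretches are shown. Mxd3 and Mxi1, which like these rose after Doxo as described below, held none. The stretches end before the outermost annotated start, and 3 of the 4 matches of Mxd1 lie in its stretch. Capitals mark CCAAT, its reverse complement ATTGG and, in Mxd4, the E-box already shown. The matches are descriptions of the letters and not sites of a factor.
Mxd4, 250 bases before the gene, minus strand of chr5:34187711-34187960: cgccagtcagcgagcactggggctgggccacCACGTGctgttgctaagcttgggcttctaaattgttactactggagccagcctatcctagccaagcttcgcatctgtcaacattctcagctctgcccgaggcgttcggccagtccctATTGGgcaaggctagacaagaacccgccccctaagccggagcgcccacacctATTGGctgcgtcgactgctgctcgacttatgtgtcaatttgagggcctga
Mxd1, 175 bases before the gene, minus strand of chr6:86669235-86669409: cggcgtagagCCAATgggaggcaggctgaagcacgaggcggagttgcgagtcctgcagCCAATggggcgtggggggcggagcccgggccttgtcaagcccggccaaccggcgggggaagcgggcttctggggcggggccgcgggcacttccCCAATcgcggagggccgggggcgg

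H2O2 left the mean of Myc within 0.03 of its untreated level in WT cells, while 3 antagonists rose, Mnt 2.01-fold, Mxi1 1.82-fold and Mxd1 1.47-fold, and Mxd3 was 2.28-fold lower without passing the test. Of the 18 probe sets 3 were called, all higher (16.7%), where 3.66% of all probe sets were called, 1.86% higher and 1.81% lower. The fit with a block for the replicate number called 5, 3 higher and 2 lower, where it called 6.95% of all probe sets. On replicates 3 and 4 alone 6 were called, 3 higher and 3 lower, where 6.59% of all were. On replicates 1 and 2 alone 0 of all 45037 probe sets were called (limma), members included, and 5 members had an unadjusted p under 0.05. By the study's own thresholds (1.5-fold, with p under 0.05 before adjustment) 2 probe sets were higher, where 2.07% of all were, and 2 were lower, where 2.59% of all were.

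Doxo lowered Myc 6.74-fold in WT cells and raised Mxd1 2.80-fold, Mxd3 2.84-fold, Mxd4 2.21-fold and Mxi1 1.96-fold. Of the 18 probe sets 12 were called (66.7%), 11 higher and 1 lower, where 35% of all probe sets were called, 21.9% higher and 13% lower. The median of all probe sets was itself shifted by 0.13 after Doxo in WT cells and by 0.15 in p66-/- cells, and the changes below are not corrected for it. Further quantile normalization turned the sign of no called change at the probe sets described. Leaving out each array in turn kept the Doxo rise in WT cells at 1.32 to 1.64 for Mxd1 and 1.29 to 1.72 for Mxd3. It was 0.95 to 1.41 for Mxd4 and 0.83 to 1.12 for Mxi1. Leaving out a WT Doxo array leaves 1 array in its group, and fewer probe sets were then called, among the members and among all. In bulk RNA, fewer cells with a transcript and less of it per cell cannot be told apart.

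**Figure D1:**
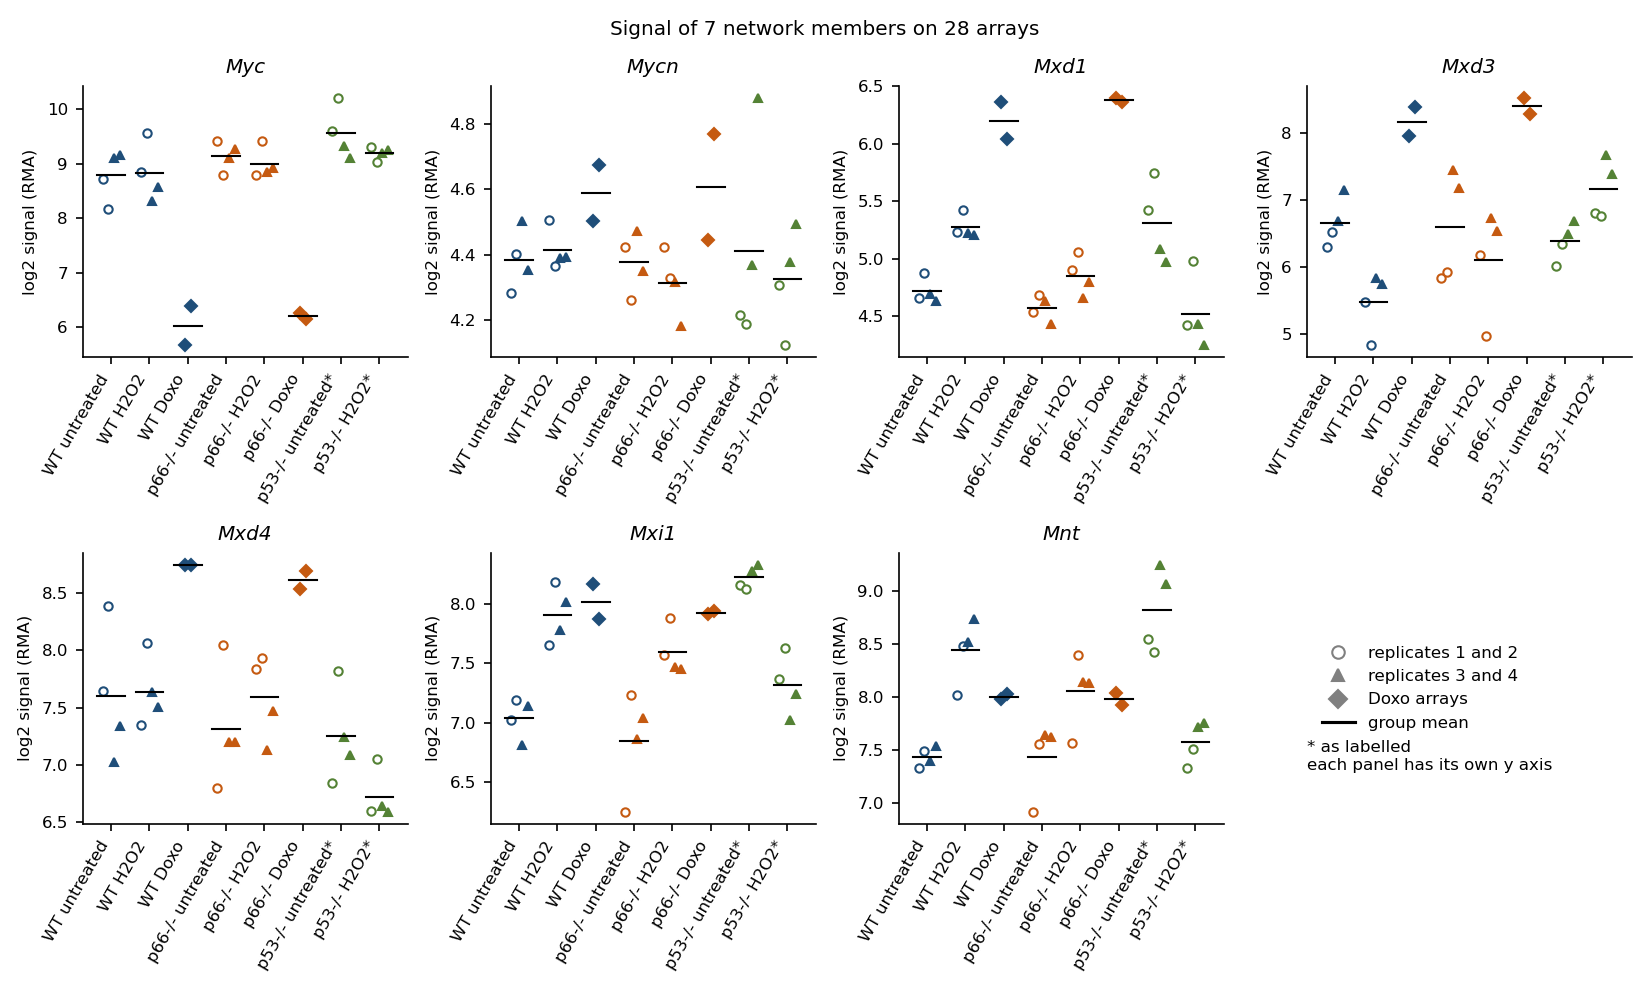
Log2 signal of the 7 measured members on each of the 28 arrays (y axis, own scale in each panel) in the 8 groups (x axis), with open circles for replicates 1 and 2, triangles for replicates 3 and 4, diamonds for Doxo arrays and lines for group means. The Doxo arrays lie below all others for Myc, between 5.68 and 6.39, and above all others for Mxd1, between 6.04 and 6.39.

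Myc (chr15:61985341-61990361) was read by 1 probe set. Untreated WT arrays read 8.73, 8.16, 9.10 and 9.16 in the order of their replicate numbers, and WT arrays after H2O2 read 8.84, 9.56, 8.32 and 8.56. The 2 groups overlapped, the lowest of the 8 arrays being an untreated one and the highest an H2O2 one. The difference was 0.03 ± 0.26 (SE) on the log2 scale, with a 95% interval of -0.50 to 0.57 (limma, adjusted p = 1). This mean covered opposite values in the array sets. Arrays of the same number differed by 0.11 and 1.40 for replicates 1 and 2 and by -0.78 and -0.60 for replicates 3 and 4, and replicates 3 and 4 fitted alone gave -0.69 (limma, adjusted p = 0.0069) against 0.76 (adjusted p = 0.60) for replicates 1 and 2. In p66-/- cells the same differences were -0.63, 0.62, -0.24 and -0.36, so that in both genotypes the pair of replicate 2 was the highest.

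After Doxo, Myc read 5.68 and 6.39 in WT cells and 6.27 and 6.16 in p66-/- cells. All 4 arrays lay below each of the other 24. Myc fell by 2.75 ± 0.32 in WT cells (limma, adjusted p = 1.9e-06) and fell by 2.92 ± 0.32 in p66-/- cells (limma, adjusted p = 8e-07), which is 7.59-fold. Leaving out each array in turn gave -3.11 to -2.40 in WT cells and -3.04 to -2.83 in p66-/- cells. The responses differed by -0.17 between the genotypes, with an interval of -1.10 to 0.76. Ordered by their means, the groups ran from WT Doxo (6.03 ± 0.50, SD, n = 2) and p66-/- Doxo (6.22 ± 0.079, n = 2) through untreated WT (8.79 ± 0.46, n = 4), WT H2O2 (8.82 ± 0.54), p66-/- H2O2 (8.99 ± 0.28) and untreated p66-/- (9.14 ± 0.27) to the p53-/- arrays labelled H2O2 (9.20 ± 0.12) and untreated (9.55 ± 0.47). Apart from the step between the Doxo groups and the rest, neighbours in this order lay within their SDs.

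Mycn (chr12:12936093-12941836), the paralogue known from embryonic and neural cells, was read low by its 3 probe sets, and the lowest of these, 1417155, was the only probe set of the network within the lowest 40% by mean (under 3.96). At the probe set with the highest mean the group means lay between 4.31 and 4.61. H2O2 changed it by 0.03 in WT cells (interval -0.21 to 0.27) and Doxo by 0.20 (interval -0.09 to 0.50). Another probe set, 1425922, was called higher after Doxo, by 0.42 ± 0.14 in WT cells (limma, adjusted p = 0.025) and by 0.56 ± 0.14 in p66-/- cells (adjusted p = 0.0036). The 3 probe sets thus disagreed, and 1417155 differed by -0.14 in WT cells after Doxo.

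Mxd1 (chr6:86647044-86669234) is the antagonist known to appear as cells differentiate. Its untreated WT arrays read 4.66, 4.88, 4.70 and 4.63, those after H2O2 read 5.23, 5.42, 5.23 and 5.21, and those after Doxo 6.36 and 6.04. The 3 groups did not overlap. The untreated values were low, not far above the array medians of 4.35 to 4.46. Mxd1 rose by 0.56 ± 0.15 after H2O2 (limma, adjusted p = 0.033) and by 1.48 ± 0.18 after Doxo (adjusted p = 3.6e-06), and the 2 responses differed by 0.93 ± 0.18 (adjusted p = 0.00060). The same-number differences after H2O2 were close to each other, from 0.53 to 0.58. The H2O2 call was nevertheless near the threshold: without any of the 8 WT arrays but untreated replicate 2 the adjusted p was 0.053 to 0.10, with changes of 0.51 to 0.58.

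Mxd1 in p66-/- cells read 4.54, 4.68, 4.63 and 4.43 untreated and 4.90, 5.06, 4.66 and 4.80 after H2O2. These groups overlapped by 1 pair of arrays, and the change of 0.28 (interval -0.02 to 0.59) was not called. After Doxo it read 6.39 and 6.36, a rise of 1.80 ± 0.18 (limma, adjusted p = 3.5e-07). The other probe sets of Mxd1 were weaker: 1455104 rose by 0.82 after Doxo in WT cells and by 1.08 in p66-/- cells, and 1422002 rose by 0.48 in WT cells and differed by 0.30 in p66-/- cells (adjusted p = 0.12). With H2O2 in WT cells 1455104 differed by 0.33 (adjusted p = 0.13).

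Mxd3 (chr13:55325170-55329900) is the member known to be expressed in dividing cells, in S phase, unlike the other Mxd genes. Untreated WT arrays read 6.30, 6.53, 6.68 and 7.14, and H2O2 arrays read 5.48, 4.83, 5.84 and 5.75. Every H2O2 array lay below every untreated one. The difference was -1.19 ± 0.37 (limma, adjusted p = 0.081), and it passed the test when the replicate number was a block (adjusted p = 0.0023). Replicates 1 and 2 alone gave -1.26 (adjusted p = 0.31) and replicates 3 and 4 alone gave -1.12 (adjusted p = 0.0037). The other 2 probe sets differed by -0.82 and -0.46, neither called.

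After Doxo the sign was opposite. WT Doxo arrays read 7.96 and 8.39 and those of p66-/- cells 8.52 and 8.29, above every array without Doxo. Mxd3 rose by 1.51 ± 0.45 in WT cells (limma, adjusted p = 0.013) and by 1.81 ± 0.45 in p66-/- cells (adjusted p = 0.0034), and its other probe sets rose by 1.32 and 1.64 in WT cells. Without replicate 2 of the WT Doxo arrays the rise of 1.29 was not called (adjusted p = 0.14). The Doxo response exceeded the H2O2 response in WT cells by 2.70 ± 0.45 (limma, adjusted p = 0.00014), which is 6.48-fold and the highest positive difference among the members. In p66-/- cells H2O2 arrays read 6.19, 4.96, 6.73 and 6.54 against 5.83, 5.92, 7.45 and 7.19 untreated, and the groups overlapped. That difference, -0.49 (interval -1.25 to 0.27), did not differ from that of WT cells by a called amount (0.70, interval -0.38 to 1.77).

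Mxd4 (chr5:34176580-34187710), a repressor known from cells that leave the cycle, read 7.64, 8.38, 7.03 and 7.34 on untreated WT arrays and 7.35, 8.06, 7.63 and 7.51 after H2O2. The groups overlapped fully, and the difference was 0.04 (interval -0.52 to 0.60). After Doxo it read 8.74 and 8.74 in WT cells and 8.53 and 8.69 in p66-/- cells. All 4 Doxo arrays lay above the other 24. It rose by 1.14 ± 0.33 in WT cells (limma, adjusted p = 0.011) and by 1.30 ± 0.33 in p66-/- cells (adjusted p = 0.0039). Without the WT Doxo arrays of replicate 1 or replicate 2 the rise was 1.14 or 1.15 and the adjusted p 0.059 or 0.077. The other 3 probe sets were all higher after Doxo, from 0.31 to 1.47 in WT cells, and 1422574 was called in both genotypes and 1434379 in p66-/- cells.

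Mxi1 (chr19:53310128-53373293), a tumour suppressor candidate that antagonizes Myc, read 7.02, 7.19, 6.81 and 7.14 on untreated WT arrays and 7.65, 8.18, 7.78 and 8.01 after H2O2. No H2O2 array reached down to an untreated one. It rose by 0.87 ± 0.17 (limma, adjusted p = 0.0028), with 0.81 (adjusted p = 0.44) on replicates 1 and 2 alone and 0.92 (adjusted p = 0.0034) on replicates 3 and 4 alone. In p66-/- cells it read 6.25, 7.23, 6.86 and 7.04 untreated and 7.57, 7.88, 7.47 and 7.45 after H2O2. These groups did not overlap either, but the difference of 0.75 ± 0.17 was not called (adjusted p = 0.15), and it was -0.12 from that of WT cells (interval -0.60 to 0.37).

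Doxo raised Mxi1 as well. The arrays read 8.16 and 7.87 in WT cells and 7.91 and 7.94 in p66-/- cells, rises of 0.97 ± 0.20 (limma, adjusted p = 0.00093) and 1.08 ± 0.20 (adjusted p = 0.00031). The difference between Doxo and H2O2 in WT cells was 0.11, with an interval of -0.31 to 0.53. The second probe set, 1425732, differed by less, with 0.18 after H2O2 and 0.20 after Doxo in WT cells, neither called.

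Mnt (chr11:74830806-74845725) is the antagonist that most cells express at all times. Untreated WT arrays read 7.33, 7.49, 7.40 and 7.54, and H2O2 arrays read 8.02, 8.49, 8.52 and 8.74. The lowest H2O2 array lay 0.48 above the highest untreated one. Mnt rose by 1.004 ± 0.19 (limma, adjusted p = 0.0030), with 0.85 (adjusted p = 0.40) on replicates 1 and 2 alone and 1.16 (adjusted p = 0.00024) on replicates 3 and 4 alone. In p66-/- cells the difference was 0.62 ± 0.19 (adjusted p = 0.57), and the untreated arrays read 6.92, 7.56, 7.64 and 7.62 against 7.57, 8.40, 8.15 and 8.14. Only the lowest H2O2 array overlapped with the untreated ones, and the response was -0.38 from that of WT cells (interval -0.95 to 0.19).

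After Doxo, Mnt read 7.98 and 8.03 in WT cells and 8.04 and 7.93 in p66-/- cells, above all untreated arrays of the same genotype. The differences of 0.57 ± 0.24 and 0.55 ± 0.24 missed the threshold (limma, adjusted p = 0.066 and 0.067). The second probe set, 1418193, passed it with 0.58 ± 0.17 (adjusted p = 0.012) and 0.45 ± 0.17 (adjusted p = 0.042), but was at 0.19 after H2O2 in WT cells (adjusted p = 0.74). Mnt had the largest called response to H2O2 in WT cells. At the probe sets described, it was the only repressor whose WT mean was lower after Doxo than after H2O2. That difference was -0.44 (interval -0.93 to 0.06, not called). Probe set 1418193 went the other way, with WT means of 5.32 after Doxo and 4.93 after H2O2, and these groups overlapped.

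**Figure D2:**
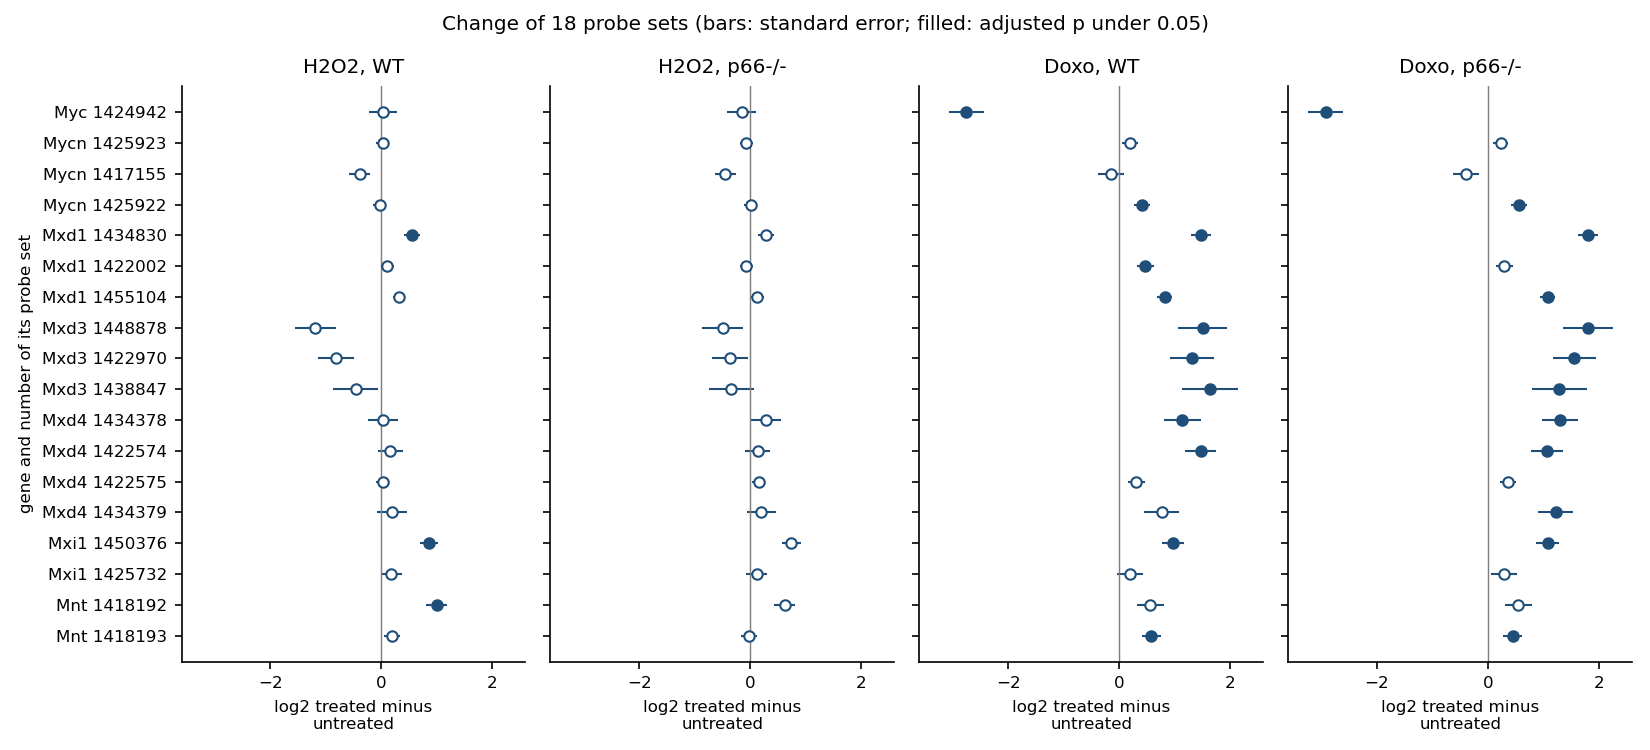
Log2 difference between treated and untreated arrays (x axis) of the 18 probe sets, named by gene and probe set number (y axis, the probe set with the highest mean first within a gene), for H2O2 and Doxo in WT and p66-/- cells, with standard errors as bars and filled points for an adjusted p under 0.05. After H2O2 in WT cells 3 points are filled, and after Doxo 12 points in either genotype, of which Myc alone is on the negative side.

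Whether p66 changes the response was asked by comparing the genotypes. None of the 18 probe sets was called after H2O2 in p66-/- cells, where 3 had an unadjusted p under 0.05 and 8 of all probe sets (0.0178%) were called, all higher (0% lower). By the study's thresholds 2 were higher, Mxi1 1.68-fold and Mnt 1.54-fold, and none lower, where 0.659% of all probe sets were higher and 0.249% lower. The response to H2O2 in p66-/- cells minus that in WT cells gave 0 called members (limma), with 0 at an unadjusted p under 0.05 and 0.00222% of all probe sets called. At the probe sets described, the size of the H2O2 difference, whatever its sign, was smaller in p66-/- cells for Mnt, Mxi1, Mxd1 and Mxd3. It was larger there for Mxd4, Myc and Mycn. The means of Myc and Mycn were higher after H2O2 in WT cells and lower in p66-/- cells. None of these differences between genotypes was called.

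Untreated p66-/- cells against untreated WT cells gave 0 called members and 0 at an unadjusted p under 0.05, with 0% of all probe sets called. The differences at the probe sets described ran from -0.29 for Mxd4 to 0.35 for Myc. After Doxo 12 of 18 probe sets were called in p66-/- cells, 11 higher and 1 lower, where 40.7% of all probe sets were called, 26.6% higher and 14.1% lower. The Doxo responses of the genotypes gave 0 called differences, 0 at an unadjusted p under 0.05 and 0% called over all probe sets. The comparisons of each genotype share their untreated arrays, so the values stand side by side.

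**Figure D3:**
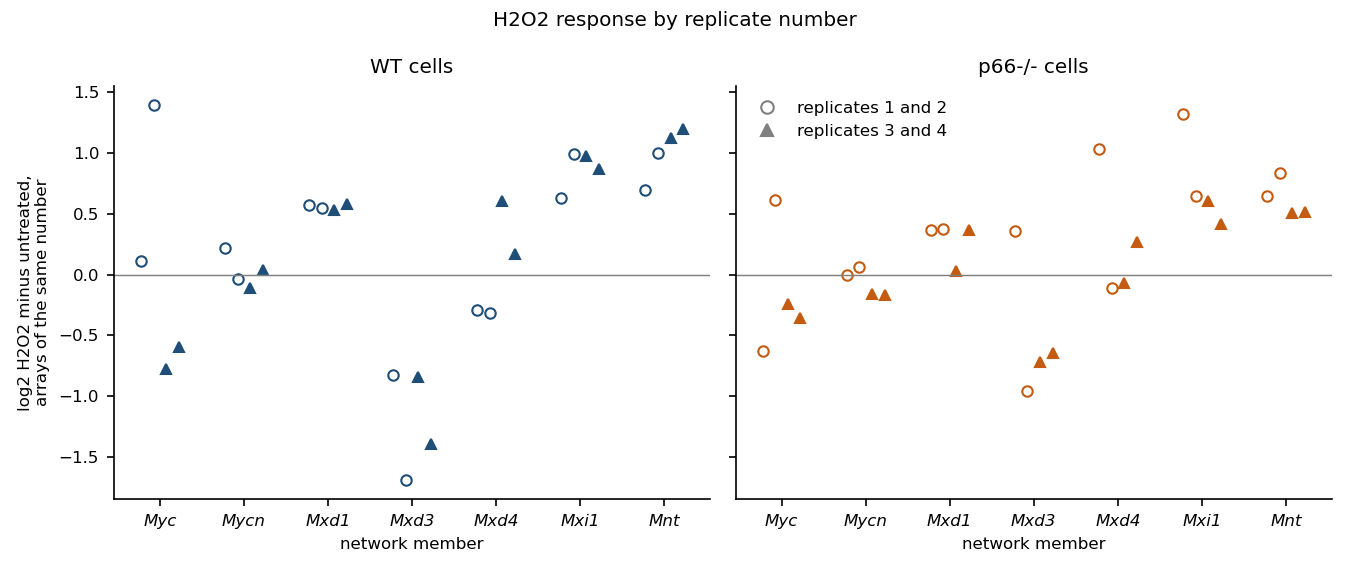
Log2 difference between the H2O2 array and the untreated array of the same replicate number (y axis) for the 7 members (x axis) in WT and p66-/- cells, with open circles for replicates 1 and 2 and triangles for replicates 3 and 4. In WT cells all 4 points of Mxd1, Mxi1 and Mnt lie above 0 and all 4 of Mxd3 below it, while those of Myc run from -0.78 to 1.40.

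In p53-/- cells the values by label run opposite to WT cells. The study describes its H2O2-treated p53-/- cells as set against untreated WT cells, whereas the reference here is the p53-/- arrays labelled untreated. Set against untreated WT cells, the arrays labelled H2O2 gave 0 called members, where 0.0844% of all probe sets were called. By label, 4 of 18 probe sets were lower after H2O2 and none higher, where 4.56% of all probe sets were called, 2.45% lower and 2.11% higher. Mnt read 8.55, 8.43, 9.25 and 9.07 on the arrays labelled untreated and 7.33, 7.51, 7.72 and 7.76 on those labelled H2O2. The groups were far apart, with all 4 arrays labelled untreated at the level of H2O2-treated WT cells or above. By label Mnt fell by 1.24 ± 0.19 (limma, adjusted p = 0.00041), Mxi1 by 0.91 ± 0.17 (adjusted p = 0.0018) and Mxd1 by 0.78 ± 0.15 (adjusted p = 0.0023), with its probe set 1455104 at -0.50 (adjusted p = 0.0098). Mxd3 was at 0.78 (adjusted p = 0.28, and 0.037 under the block). The second probe sets of Mnt and Mxi1 overlapped between these groups and were not called. Their means were 4.92 labelled untreated and 4.74 labelled H2O2 for Mnt 1418193, and 5.60 and 5.27 for Mxi1 1425732.

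With the 2 labels exchanged, the same members were higher after H2O2, by 1.24, 0.91 and 0.78. The response minus that of WT cells was called for 7 probe sets by label (3 higher and 4 lower, 10.8% of all probe sets called, 5.17% higher and 5.63% lower), at -2.25 for Mnt, -1.77 for Mxi1, -1.34 for Mxd1 and 1.97 for Mxd3. With the labels exchanged it was called for 0, with 0 at an unadjusted p under 0.05 and 0.02% of all probe sets called, at 0.24 (interval -0.33 to 0.81) for Mnt, 0.04 (-0.44 to 0.53) for Mxi1, 0.23 (-0.20 to 0.66) for Mxd1 and 0.41 (-0.66 to 1.49) for Mxd3. Untreated p53-/- against untreated WT cells likewise gave 4 higher probe sets by label (4.75% called over all, 2.86% higher and 1.89% lower) and 0 with the labels exchanged (0.0844%).

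Myc did not separate the p53-/- arrays by label. The arrays labelled untreated read 9.59, 10.19, 9.32 and 9.10 and those labelled H2O2 read 9.31, 9.03, 9.20 and 9.25, and the groups overlapped. Against untreated WT cells the difference was 0.76 ± 0.26 by label (limma, adjusted p = 0.10). Exchanging the labels gave 0.41 ± 0.26 (adjusted p = 0.89), and neither was called, though the difference by label passed the study's thresholds. With the labels exchanged, H2O2-treated p53-/- cells differed in Myc from H2O2-treated WT cells by 0.73 (interval 0.20 to 1.27). That was not called either (limma, adjusted p = 0.36) but was past the study's thresholds. Mxd4 read lowest of all groups on the arrays labelled H2O2 (6.72 ± 0.22, SD, n = 4), and its difference from the arrays labelled untreated, -0.53, was not called (adjusted p = 0.33). With the labels exchanged these are the untreated p53-/- arrays, and they differed from untreated WT cells by -0.88 (interval -1.44 to -0.32, adjusted p = 0.62, not called but past the study's thresholds).

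Doxo and H2O2 were compared directly in WT cells. Of the 18 probe sets 9 were called, 8 higher and 1 lower after Doxo, where 29.8% of all probe sets were called, 17.7% higher and 12% lower. The difference was -2.79 ± 0.32 for Myc (limma, adjusted p = 2.1e-06), 2.70 for Mxd3, 1.10 for Mxd4 and 0.93 for Mxd1. For Mxi1 and Mnt the interval of the difference held 0. Without replicate 1 or 2 of the WT Doxo arrays Mxd4 was no longer called here (adjusted p = 0.075 or 0.10, difference 1.10).

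Of the wider network, the Max and Mlx partners were measured for all 5 genes listed. H2O2 lowered 2 of them in WT cells, where 4.95% of the 17097 genes were called, 2.29% higher and 2.67% lower. Mlx, the Max-like protein that pairs with the glucose-sensing Mondo factors and with Mxd proteins, fell by 1.51 ± 0.24 (limma, adjusted p = 0.00041), and Mlxip, a Mondo factor, fell by 0.42 ± 0.094 (adjusted p = 0.0097). Mlx in p66-/- cells differed by -0.68 (adjusted p = 0.76). After Doxo in WT cells neither was called (-0.17 and 0.06), and Mga, a large Max partner that silences germ cell genes, fell by 2.43 ± 0.62 in WT cells (adjusted p = 0.0048). The median of the list was -0.42 after H2O2, against 0.02 over all genes.

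Cofactors were measured for 13 of 19 genes. With H2O2 in WT cells Ep400, a subunit of the Tip60 acetyltransferase complex, fell by 0.68, and no other was called, where 4.95% of all genes were. After Doxo 1 rose and 2 fell, where 43.1% of all genes were called, 27% higher and 16.1% lower. Hdac2, a histone deacetylase of the Sin3 complex, fell by 1.91 ± 0.19 (limma, adjusted p = 4.3e-07), and the scaffolds of that complex went apart: Sin3a fell by 0.71 (adjusted p = 0.0014) and Sin3b rose by 0.84 (adjusted p = 0.0016).

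Genes of Myc protein turnover were measured for 13 of 14. In WT cells given H2O2, Fbxw7, the ubiquitin ligase subunit that marks phosphorylated Myc, rose by 0.94 ± 0.22 (limma, adjusted p = 0.013), and Skp2, another ligase subunit that acts on Myc, fell by 1.17 ± 0.19 (adjusted p = 0.00047), where 4.95% of all genes were called. After Doxo 3 rose and 3 fell, 6 of 13 where 43.1% of all genes were called. Skp2 fell by 1.45, Gsk3b, the kinase that prepares Myc for Fbxw7, fell by 1.71 and Huwe1, a large ligase, fell by 0.82, whereas the Gsk3b paralogue Gsk3a rose by 0.54 (adjusted p = 0.010). Fbxw7 was at -0.34 after Doxo (adjusted p = 0.33).

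Known Myc-activated genes were measured for 36 of 40. In WT cells H2O2 raised 1 (Eif4e, the cap-binding factor, 0.68) and lowered 1 (Grwd1, a ribosome assembly factor, -1.11), and the list median was -0.10. Of all genes 4.95% were called there, 2.29% higher and 2.67% lower. After Doxo, with Myc 6.74-fold lower, 5 rose and 6 fell in WT cells, 11 of 36 where 43.1% of all genes were called, 27% higher and 16.1% lower, and the list median was 0.26 against 0.19 over all genes. The 4 with the lowest adjusted p fell: Ddx21, an RNA helicase, fell by 2.36 ± 0.23 (limma, adjusted p = 2.6e-07), Wdr43 fell by 1.94 (adjusted p = 5.1e-07), Npm1, nucleophosmin, fell by 1.82 (adjusted p = 5.3e-06) and Nop58 fell by 2.88 (adjusted p = 0.00060). The 5 that rose, named after their values were seen, were Cad (0.96) and Odc1 (0.77), enzymes of pyrimidine and polyamine synthesis, Shmt2 (0.90), an enzyme of one-carbon metabolism, Bop1 (0.83), a ribosome assembly factor, and Cdk4 (0.46). In p66-/- cells 8 rose and 6 fell, where 49.2% of all genes were called, 32.6% higher and 16.5% lower.

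Genes that Myc is known to repress were measured for 10 of 11. In H2O2-treated WT cells 4 rose and none fell, Gadd45a by 3.22, Ndrg1, a differentiation and hypoxia gene, by 1.78, Cdkn1a, the p21 cell cycle inhibitor, by 1.27 and Ccng2, an atypical cyclin, by 1.17, while Myc was at 0.03 and 2.29% of all genes were called higher. Several of these are also known p53 targets. The Myc value is a mean over array sets that went opposite ways, as given above. The part of Myc or of p53 in these rises was not tested. After Doxo Cdkn1a rose by 1.505 and Ndrg1 by 1.85, and Col1a2, a collagen chain that is also in the list of fibroblast markers, fell by 2.52 (adjusted p = 0.0063), 3 of 10 where 43.1% of all genes were called, while Gadd45a was at -0.05 (adjusted p = 0.93) and Ccng2 at -0.16 (adjusted p = 0.62). The list median was 0.28 after H2O2 and -0.10 after Doxo.

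Proliferation markers were measured for all 15 genes, since Mxd3 and Myc are known to go with division. None was called after H2O2 in WT cells (limma), where 4.95% of all genes were called. An unadjusted p under 0.05 was reached by 3, and the list median was -0.29. After Doxo 4 fell and 1 rose, 5 of 15 where 43.1% of all genes were called. They were Bub1, a spindle checkpoint kinase (-3.62), Ccne2, cyclin E2 (-3.48), Mki67 (-3.35) and Top2a, the target of Doxo (-1.67), against Mcm5, a subunit of the replicative helicase (0.91), the last named after its value was seen. Mean levels of the list per array were 8.64 to 9.04 in untreated WT cells, 7.99 to 8.78 after H2O2 and 8.16 to 8.20 after Doxo. Their part in the change of Mxd3 was not tested.

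**Figure D4:**
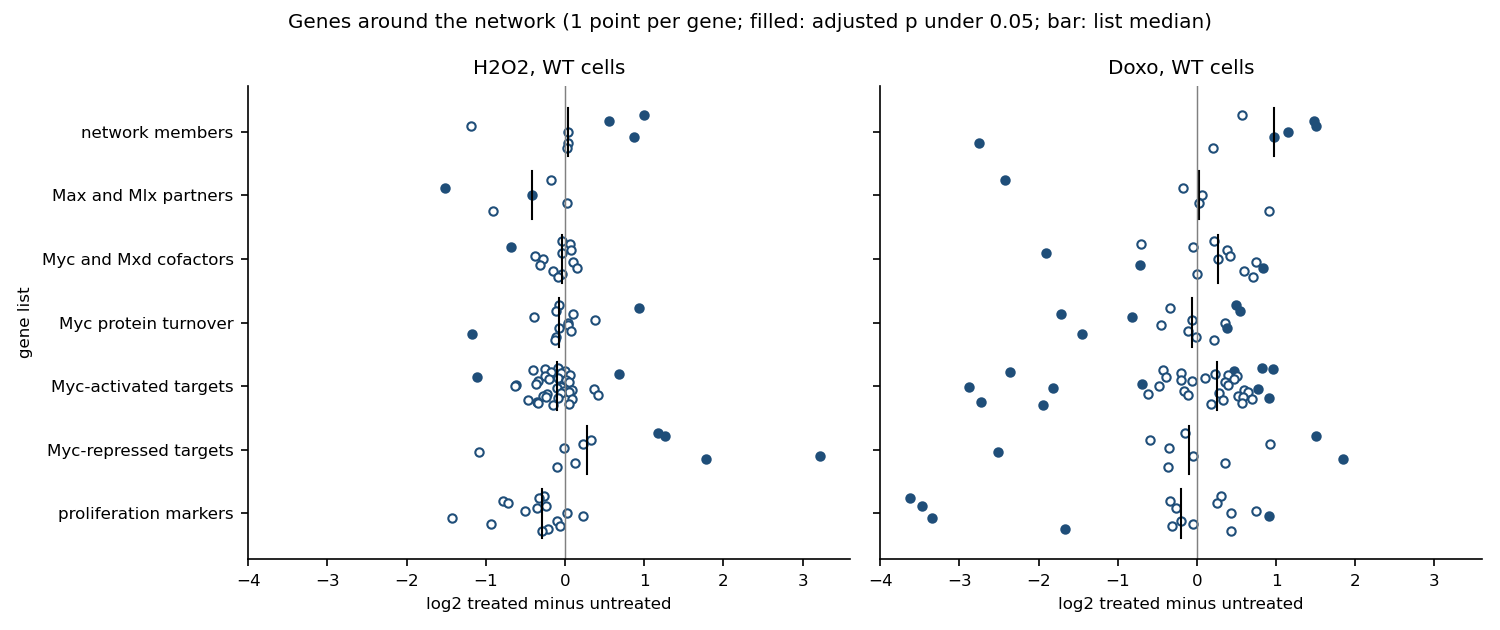
Log2 difference between treated and untreated WT cells (x axis) for each measured gene of 7 lists (y axis), after H2O2 and after Doxo, with filled points for an adjusted p under 0.05 and a bar at the list median. The Myc-repressed list holds 4 filled points above 0 after H2O2, and the Myc-activated list holds filled points on either side of 0 after Doxo, 5 above and 6 below.

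Across the 28 arrays the members did not move as a block. Described by Pearson's r between arrays, which share treatments and array sets, Mxi1 and Mnt stood at 0.84, Mxd1 and Mxd4 at 0.78 and Mxd1 and Mxi1 at 0.68, while Mxd3 stood at -0.21 with Mnt. Myc stood at -0.75 with Mxd4, -0.73 with Mxd1 and -0.65 with Mxd3, and at 0.03 with Mnt. The 4 Doxo arrays, a set of their own, were the lowest for Myc and the highest for Mxd1, Mxd3 and Mxd4. The r values without these arrays were not computed. Over 12526 other genes above the low values, those most like Mxi1 were Ndrg1 (r = 0.93), Tsc22d3 (0.91) and Atg14 (0.91). Those most like Mxd1 were Ulk1 (0.93), Flvcr2 (0.92) and Hdac11 (0.91), and those most like Mnt were 2410006H16Rik (0.93), Gpr19 (0.93) and Spata2 (0.92), all over 28 arrays.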

How the data were processed

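The authors hybridized biotin-labelled RNA to Affymetrix mouse strip arrays and normalized them with RMA in Partek 6.5, per the labels, with deposited log2 signals from 1.95 to 13.47. Precision is limited by how many arrays there are. Of 45141 probe sets 104 controls were left out. Genes come from the platform's probe table: 28898 probe sets had 1 symbol, 551 several and 15588 none. limma 3.58.1 (R 4.3.3) fitted 8 group means, all groups sharing their spread, with Benjamini-Hochberg adjustment over 45037 probe sets, and the script was tested on simulated data. The members and gene lists were chosen with earlier results of these data known. Members were described at the probe set with the highest mean, with other probe sets that were called or disagreed, other lists by up to 4 called genes with the lowest adjusted p for each treatment of WT cells, and likeness by the 3 genes of highest r. Genes outside this are marked. Arrays of the same replicate number deviated together after H2O2 (r = 0.51 to 0.75 with the untreated arrays), so the labels' number was also used as a block. For replicates 3 and 4 of p66-/- cells, however, another untreated p66-/- array gave a higher r than the one of the same number. For Doxo r was -0.077 to 0.047. Alternatives were the methods' t-test, fits to the compared groups alone, no low values (lowest 40%), quantile normalization, array sets alone, exchanged p53-/- labels, untreated WT cells as reference, 1 probe set per gene, leaving out each array and a promoter window without its last 50 bases. Promoter sequences are RefSeq's, GRCm38.p6.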

Additional observations from a re-analysis of the deposited data

Results flagged for a closer look

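In 42 groups of 4 arrays of the described probe sets, 3 held an array far from the rest, where chance alone gives about 1 in 20, or 2.1. Mxd1 in H2O2-treated WT cells read 5.42 in replicate 2 and 5.21 to 5.23 in the others. Mxd4 in the p53-/- arrays labelled H2O2 read 7.05 in replicate 2 and 6.59 to 6.64 in the others. Mnt in untreated p66-/- cells read 6.92 in replicate 1 and 7.56 to 7.64 in the others.

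The response to H2O2 differed between p53-/- and WT cells by label, by -1.34 for Mxd1, 1.97 for Mxd3, -1.77 for Mxi1 and -2.25 for Mnt. With the untreated and H2O2 labels of the p53-/- arrays exchanged none of these 4 differences was called.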

How the results depend on the processing

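The counts of called probe sets of the 18 moved by over 1.5 times or changed direction as follows. After H2O2 in WT cells 3 became 0 with the methods' t-test after adjustment (7 unadjusted) and 5 with the replicate block. It became 0 on replicates 1 and 2 (5 unadjusted) and 6 on replicates 3 and 4. Of all probe sets these settings called, in order, 0.5%, 6.95%, 0% and 6.59%, against 3.66% in the main fit. In p66-/- cells 0 became 2 at the study's thresholds (0.908% of all probe sets) and 2 with the methods' t-test at them (0.58%). In p53-/- cells by label 4 lower (4.56% of all probe sets called) became 1 with the adjusted t-test (1.05%) and 2 in the groups alone (2.61%). It became 4 higher with labels exchanged (4.56%) and 0 against untreated WT cells (0.0844%). On replicates 1 and 2 it was 0 (0%) and on replicates 3 and 4 it was 7 (2 higher, 5 lower, 8.27%). For untreated p53-/- against WT cells 4 became 1, 2, 0, 0 and 2 with the adjusted t-test, the groups alone, exchanged labels, replicates 1 and 2, and replicates 3 and 4. Of all probe sets these called, in order, 0.939%, 2.66%, 0.0844%, 0.00444% and 8.46%, against 4.75% in the main fit. The p53-/- minus WT response of 7 (10.8% of all) became 4 with 1 probe set per gene (14.3%). It became 0 with exchanged labels (0.02%) and 0 on replicates 1 and 2 (1.37%). With 1 probe set per gene, which tests 7, Doxo gave 5 in WT (45.1% of all genes called) and 5 in p66-/- cells (50.9%). Doxo minus H2O2 then gave 4 (40%). The adjusted t-test gave 4 in p66-/- Doxo, where it called 13.2% of all probe sets against 40.7% in the main fit. For Doxo minus H2O2 it gave 0, where it called 0% of all probe sets against 29.8%. Leaving out each array gave 2 to 3 after H2O2 in WT cells (2.4% to 3.53% of all probe sets called). It gave 4 to 5 in p53-/- cells by label (2.84% to 5.16%) and 5 to 8 for the p53-/- minus WT response (9.23% to 11.7%). Untreated p53-/- cells gave 2 to 4 (3.01% to 4.77%), with 2 without WT untreated replicate 4 or p53-/- untreated replicate 2. Without an untreated array Doxo gave 11 to 12 in WT (29.2% to 32.3%) and 10 to 13 in p66-/- cells (32.8% to 41.8%). Without a WT H2O2 array Doxo minus H2O2 gave 8 to 9 (22.5% to 36.8%). Without a Doxo array these Doxo comparisons had fewer calls, among members and among all probe sets. Elsewhere the counts were 0 to 0. A Doxo group of 1 array is assumed to vary like the others. Apart from the labels and array sets, the cause was not tested. Values that reversed were Myc after H2O2 in WT cells (-0.69 on replicates 3 and 4) and its p53-/- minus WT response (0.70 there), and with exchanged labels Mxd1 (0.78, untreated -0.19, minus WT 0.23), Mxi1 (0.91, minus WT 0.043) and Mnt (1.24, minus WT 0.24). Against untreated WT cells Mxi1 was 0.27 and Mnt 0.14 in p53-/- arrays labelled H2O2. The replicate block also called Mxd3 after H2O2 in WT cells and Mnt after Doxo (0.73 in WT, 0.71 in p66-/- cells), where the numbers do not pair the arrays, and it took away no call of a described member. In the promoter window without its last 50 bases, 2 of 9 windows held the E-box, against 6.02%.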
